A study of Sus scrofa with 4 samples.

Results

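The receptors for the fast transmitters GABA, glutamate, glycine and acetylcholine (the nicotinic type), together with the metabotropic GABA and glutamate receptors, were examined in porcine induced pluripotent stem cells (iPSC), that is, somatic cells reset to pluripotency. Members were chosen by gene symbol alone. They are all rows of the table named GABR, GABBR, GRIA, GRIK, GRIN, GRID, GRM, GLRA, GLRB or CHRN followed by a subunit letter or number, without GRINA. This gave 59 of 16026 genes, and 9 further receptor genes of the RefSeq gene table (GABRD, GABRE, GABRP, GABRR3, GLRA4, GRIN3B, CHRNA9, CHRND and CHRNE) were not analysed here. The cells came from the Bamei black pig and carry a development stage label of 26.5 days in every library. Messenger RNA was sequenced from 2 libraries of cells labelled shLin28a, with a short hairpin RNA against LIN28A, and from 2 negative control libraries. The labels do not say whether both knockdown libraries carry the same hairpin, whether the cells are 1 clone, or whether 1 culture gave both libraries of a group. P-values here reflect only how far these 4 libraries differ, and that difference may be technical.

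GABA-A, glycine and nicotinic receptors are rings of homologous subunits around an ion pore. GABA-A and glycine receptors pass chloride, and nicotinic receptors pass cations. AMPA, kainate, NMDA and delta receptors are assembled from a separate family of glutamate receptor subunits, whereas GABA-B and metabotropic glutamate receptors act through G proteins. Subunits are chosen by cell type and stage, and several receptor classes work only when an obligate subunit is present. GABA-A receptors are active in embryonic stem cells and neural precursors well before synapses form.

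Summed counts ranged from 2400985 in knockdown 2 to 11847343 in control 1, so knockdown 2 gives the least precise value of every low gene. In CPM, which divides a gene's count by its library's sum, 3 counts amount to 0.253, 0.421, 0.372 and 1.25 in control 1, control 2, knockdown 1 and knockdown 2. LIN28A, the targeted RNA-binding protein, had 184, 59, 12 and 3 counts in control 1, control 2, knockdown 1 and knockdown 2. Its log2 estimate was −2.92 ± 0.49 (SE), with an edgeR adjusted p of 0.259 and a DESeq2 adjusted p of 0.0110. Over all 11967 tested genes edgeR called 0 genes at an adjusted p under 0.05, with 510 higher and 413 lower at an unadjusted p under 0.05. DESeq2 called 96 genes higher and 34 lower. Libraries of the same group differed in the markers of cell types. The fibroblast list came to 913, 1196, 909 and 2060 FPKM (control 1, control 2, knockdown 1, knockdown 2). Most of each sum was 1 gene, VIM, at 791, 959, 735 and 1503. The pluripotency list came to 230, 208, 230 and 110 in the same order. Of its 6 tested members 5 had a negative log2 fold change, where 51.2% of all tested genes had a positive one. DESeq2 called 1 of them lower, SALL4, at 19.2 and 19.2 FPKM in the controls against 7.71 and 3.25 in the knockdown. Its DESeq2 adjusted p was 0.0124, and 0.27% of all genes with such a value were called lower. FPKM is fragments scaled to transcript length and library total, which allows genes of different length to be compared. In these bulk samples fewer cells of a type and less RNA per cell cannot be told apart.

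Most receptor genes were at low levels, and 31 of the 59 passed the filter on low counts. The filter asks for enough counts in 2 libraries, so a gene could pass through 1 group alone, and counts over the tested genes are descriptions. Of the other 28, 15 had at most 3 counts in each library, among them GABRA5 at 0 in all, and the highest value was 2.45 FPKM for GRIK4 in knockdown 2. Mean control FPKM exceeded 1 in 16 of the 59 genes and 10 in 2 of them. In the knockdown these numbers were 21 and 6. The median of the tested receptor genes was 1.09 FPKM in the controls, against 11.3 for all tested genes.

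GLRA1, the glycine-binding subunit of the adult glycine receptor, stood highest in the controls at 20.0 ± 1.48 FPKM (SD, n = 2). GRIA3, an AMPA receptor subunit, followed at 17.2 ± 12.4 FPKM, so these neighbours in the order do not differ beyond their spread. GABRA3 and GABRB2, subunits of GABA-A receptors, were at 9.44 ± 3.03 and 8.57 ± 1.41 FPKM. GABBR1, GRIK2, GRIA1, GABRG3, CHRNB1 and GRIA4 came next, between 6.75 and 5.32 FPKM, and their order is likewise within the spread. CHRNA3, CHRNA6 and GRIK5 lay between 2.95 and 2.62 FPKM.

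**Figure D1:**
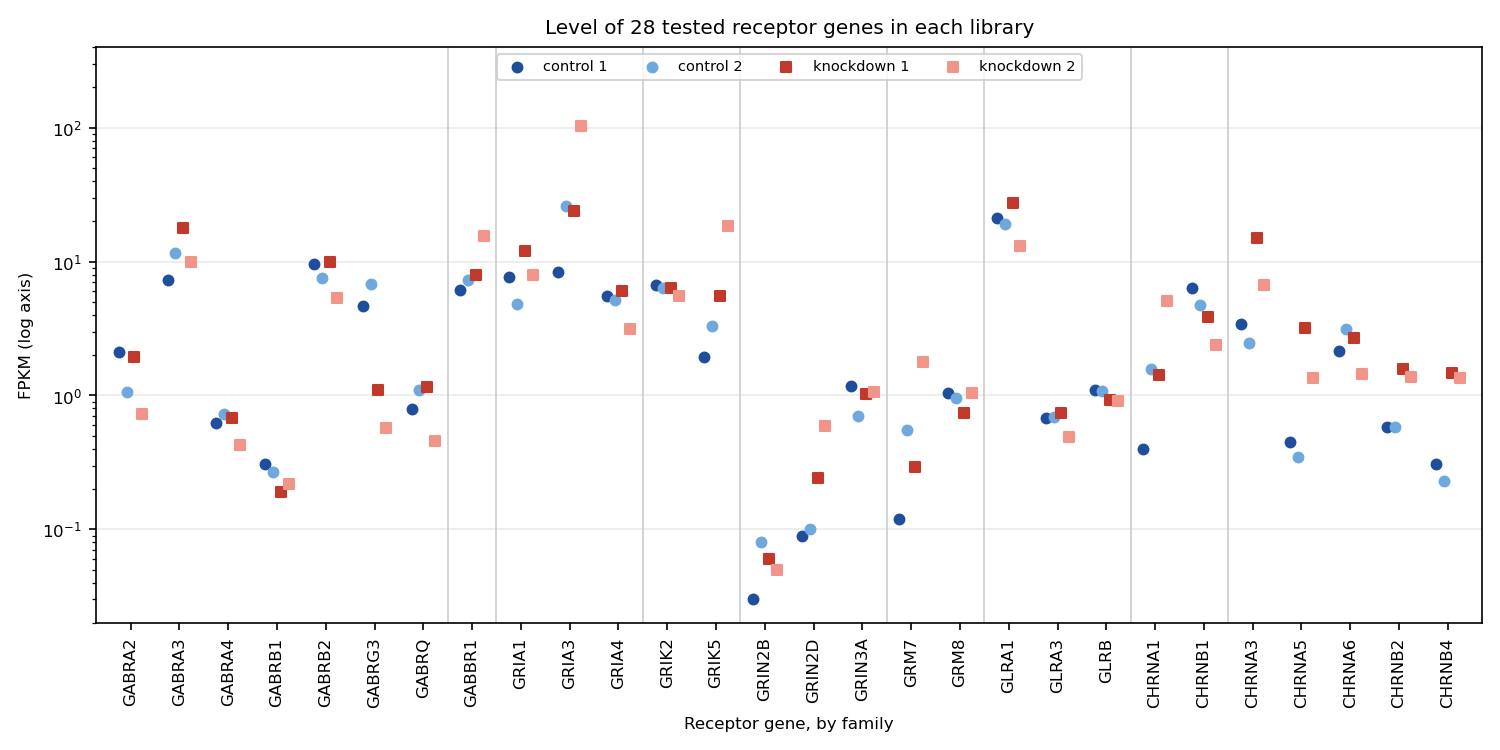
FPKM on a log axis for 28 of the 31 tested receptor genes in control 1 and 2 (circles) and knockdown 1 and 2 (squares), with vertical lines between families. GABRG3 is lower in both knockdown libraries, CHRNA3, CHRNA5, CHRNB2 and CHRNB4 are higher in both, and GRIA3 spans 8.40 to 103 FPKM with knockdown 2 far above the others.

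Several classes had an obligate or defining subunit near 0. GRIN1, the subunit that every NMDA receptor needs, had 0, 2, 0 and 1 counts in control 1, control 2, knockdown 1 and knockdown 2. It is not placed on a chromosome in the gene table. GABBR2, without which GABBR1 does not reach the cell surface as a working GABA-B receptor, had 1, 0, 3 and 0 counts, while GABBR1 had 250, 194, 238 and 101. GRIA2, the AMPA subunit that makes the channel nearly impermeable to calcium, was at 0.07, 0.21, 0.15 and 0.15 FPKM, between 0.13% and 0.58% of the summed AMPA subunits. CHRNA7, the subunit of homomeric neuronal nicotinic receptors, had at most 3 counts. Each of these counts in knockdown 2 is below the 3 counts that correspond to 1.25 CPM.

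In the comparison of knockdown with control, 22 of the 31 tested receptor genes had a positive log2 fold change and 9 a negative one. The median was 0.18, against 0.01 and 51.2% positive over all tested genes. With total counts in place of TMM factors, 17 were positive with a median of 0.02, where the median of all genes was −0.18. edgeR called 0 receptor genes in either direction, against a background of 0% of all genes. Without knockdown 1 it called 5 receptor genes higher, CHRNA3, GABBR1, GRIA3, GRIK4 and GRIK5, and GABRG3 lower, beside 1110 higher and 94 lower over all genes. At an unadjusted p under 0.05, 8 receptor genes were higher, where 4.26% of all tested genes were, and 1 was lower, where 3.45% were. The 8 included CHRNA5, CHRNB4 and GRIN2D, which passed the filter through the knockdown libraries alone. The 8 and the 4.26% are therefore not a like comparison. DESeq2, which gave an adjusted p to 39 receptor genes, called CHRNA3 and CHRNA5 higher and GABRG3 lower. Of all genes with a DESeq2 adjusted p, 0.761% were called higher and 0.27% lower.

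On CPM scaled by TMM factors, both knockdown libraries lay above both controls in 11 tested receptor genes, against 18.8% of all tested genes. Among them are GABRA3, GABBR1, GRIA1, GRIK5, GRIN2D, CHRNA3, CHRNA5, CHRNB2 and CHRNB4. Of those named, GRIN2D, CHRNA5 and CHRNB4 passed the filter through the knockdown libraries alone. Both lay below in 4, among them GABRG3, GLRB and CHRNB1, against 22.9% of all tested genes. On FPKM these counts were 10, without GABRA3, and 6, with GABRB1 and GRIK2 added, against 10.7% and 28.5%. In 13 of the 31 genes the log2 fold change was within 0.25 of 0.

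**Figure D2:**
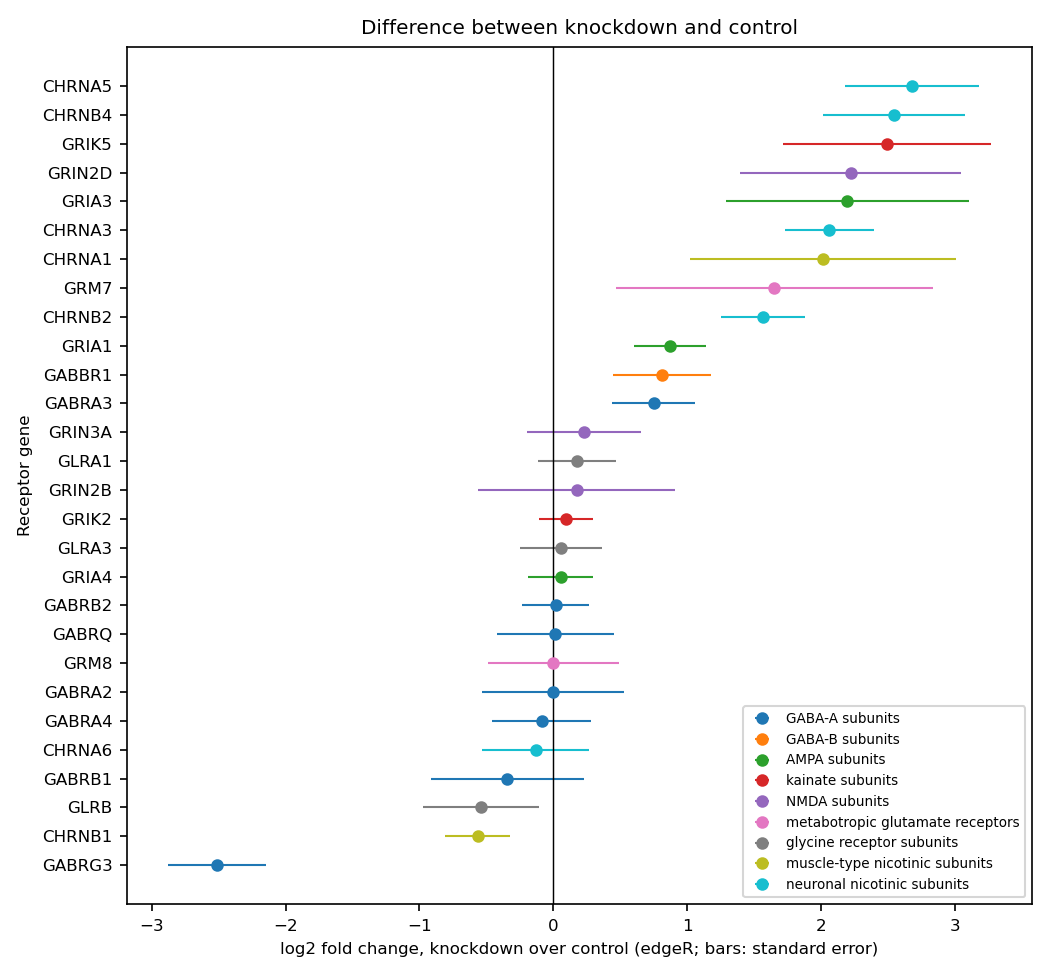
The log2 fold change of knockdown over control from edgeR, with its standard error as a bar, for 28 of the 31 tested receptor genes, coloured by family. Values run from −2.51 for GABRG3 to 2.67 for CHRNA5. Bars are short for CHRNA3 and CHRNB2 and long for GRM7, CHRNA1 and GRIA3.

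Of the 5 tested neuronal nicotinic subunits, 4 had both knockdown libraries above both controls, where 18.8% of all tested genes did on TMM-scaled CPM and 10.7% on FPKM. Only 5 of 10 members passed the filter, and CHRNA5 and CHRNB4 did so through the knockdown libraries alone. In the controls these were at 1.27 and 0.982 CPM and at 0.760 and 0.561 CPM. The shares are therefore not a like comparison, and the 4 of 5 is a description. CHRNA3, the ligand-binding alpha subunit of ganglionic receptors, was at 3.44 and 2.45 FPKM in control 1 and 2, with 15.02 and 6.68 in knockdown 1 and 2. Its counts were 175, 75, 520 and 69. Every knockdown value is above every control value, also as CPM with counting intervals (95%, exact Poisson) of 12.7 to 17.1 and 8.28 to 13.2 in the controls against 59.1 to 70.3 and 22.4 to 36.4. Its log2 estimate was 2.06 ± 0.33 (SE), 4.17-fold, and the adjusted p was 0.253 by edgeR and 0.000845 by DESeq2. Without each library in turn the edgeR estimate lay between 1.61 and 2.33. The DESeq2 adjusted p was then 0.779 and 0.355 without control 1 and 2, and 0.0789 and 2.68e-05 without knockdown 1 and 2.

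CHRNA5, an accessory subunit that joins receptors built from CHRNA3, was at 0.45 and 0.35 FPKM in control libraries, with 3.21 and 1.34 after knockdown. It had 15, 7, 72 and 9 counts, and its counting interval in knockdown 2, 1.71 to 7.12 CPM, overlaps those of the controls, 0.709 to 2.09 and 0.395 to 2.02. The knockdown 1 interval, 6.99 to 11.2 CPM, does not. On the log2 scale knockdown over control came to 2.67 ± 0.50 (SE), and the adjusted p was 0.278 by edgeR and 0.0398 by DESeq2. The DESeq2 call was lost without any 1 of the 4 libraries, where its adjusted p was between 0.208 and 1.00. CHRNB4, the beta partner of CHRNA3 in ganglia, was at 0.31 and 0.23 FPKM against 1.47 and 1.36. It rested on 9, 4, 29 and 8 counts, and its log2 fold change was 2.54 ± 0.53 (SE) with an edgeR adjusted p of 0.329 and a DESeq2 adjusted p of 0.211.

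CHRNB2, the beta subunit of the main brain receptors, was at 0.58 FPKM in both controls and at 1.58 and 1.38 in the knockdown. Libraries of a group nearly coincide, and the groups do not overlap. On the log2 scale knockdown over control came to 1.56 ± 0.31 (SE) with an edgeR adjusted p of 0.315 and a DESeq2 adjusted p of 0.141. CHRNB2 counts were not whole in 3 libraries, so some of its reads were divided with another gene. CHRNA6, an alpha subunit of dopaminergic neurons, was the exception among the tested members, at 2.16 and 3.15 FPKM against 2.69 and 1.45. edgeR estimated a log2 change of −0.13 ± 0.40 (SE), and its sign turned without control 2 or knockdown 2. CHRNA2, CHRNA4, CHRNA10 and CHRNB3 had at most 6 counts in any library.

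CHRNB4, CHRNA3 and CHRNA5 are neighbours, in this order, on chromosome 7 of Sscrofa11.1 between 47338819 and 47425871, a span of 87.1 kb. The annotated CHRNA3 and CHRNA5 genes are 116 bases apart and CHRNB4 and CHRNA3 are 2645 bases apart, and whether counting used strand is not stated in the labels. Reads running past an annotated end may therefore be counted for the neighbour. PSMA4, a proteasome subunit and the next measured gene 14704 bases past CHRNA5, had a log2 fold change of 0.58 ± 0.23 (SE). ELOVL5, a fatty acid elongase and the next measured gene before CHRNB4, had one of −1.01 ± 0.24 (SE). Their edgeR adjusted p was 0.606 and 0.381. These neighbours were looked up after the values of the receptor genes were known. CHRNB3 and CHRNA6 lie together on chromosome 17, and CHRNB3 had 1, 0, 0 and 0 counts beside the 66, 58, 56 and 9 of CHRNA6.

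**Figure D3:**
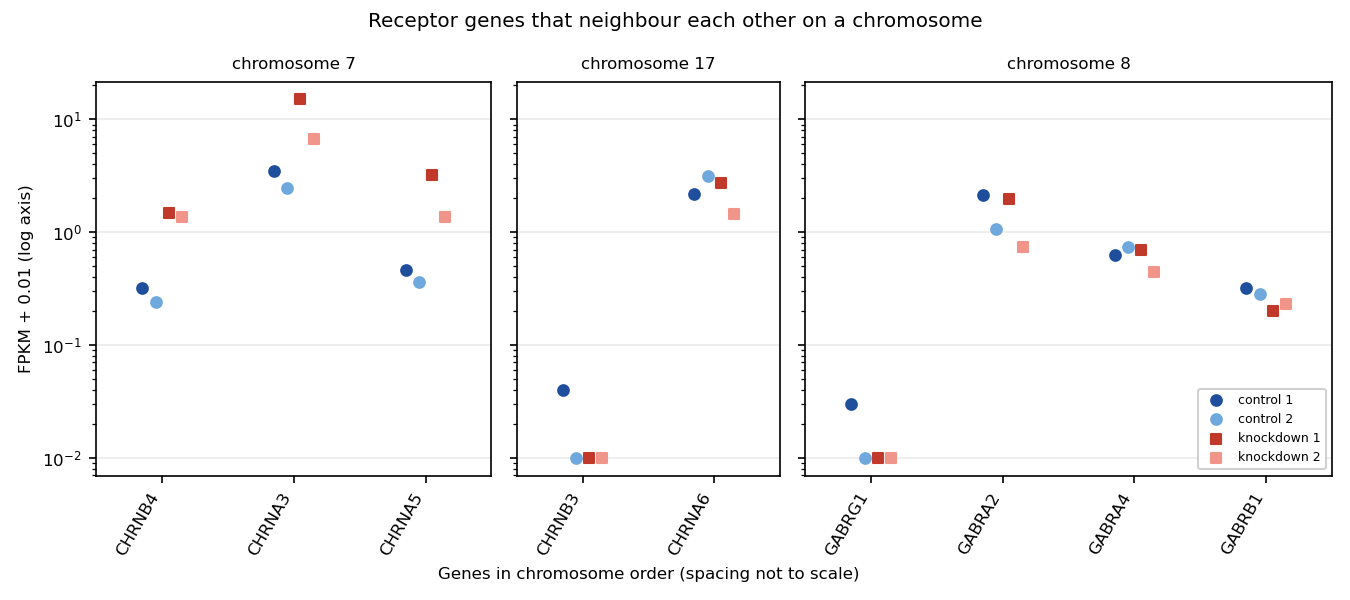
FPKM plus 0.01 on a log axis in each library (circles control, squares knockdown) for receptor genes that are neighbours on chromosomes 7, 17 and 8, in chromosome order with spacing not to scale; points at 0.01 are genes listed at 0. The 3 nicotinic genes of chromosome 7 are all higher in both knockdown libraries, CHRNA6 on chromosome 17 overlaps between the groups, and on chromosome 8 only GABRB1 has both knockdown values below both controls.

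Muscle-type nicotinic subunits, which form the receptor of the neuromuscular junction, had log2 fold changes of opposite sign. CHRNB1 was at 6.34 and 4.72 FPKM in control libraries, with 3.85 and 2.38 after knockdown. Both knockdown values are below both controls, and the log2 fold change was −0.57 ± 0.24 (SE) with an edgeR adjusted p of 0.606. CHRNA1, which binds acetylcholine, was at 0.40 and 1.57 FPKM against 1.42 and 5.11. The groups overlap, since control 2 is above knockdown 1. edgeR estimated a log2 change of 2.01 ± 0.99 (SE) at an adjusted p of 0.606, and it was 0.56 without knockdown 2 and 3.33 without control 2. The summed skeletal muscle markers put the libraries in the same order as CHRNA1, at 5.43, 11.8, 10.4 and 25.9 FPKM. Of the list, TNNC1 (8, 13, 6 and 11 counts) and ACTA1 had this order. DES, TNNT1 and MYH3 did not, and MYH3 was at 0.31 and 0.35 against 0.29 and 0.21 FPKM. The defining marker CKM was at 0.10 FPKM in control 2 and listed at 0 elsewhere. The part of these markers in the CHRNA1 values was not tested. CHRNG, the embryonic gamma subunit, had 3, 3, 12 and 2 counts and was not tested.

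Among GABA-A subunits, the gamma subunit GABRG3 had the largest negative difference. It was at 4.65 and 6.83 FPKM in control libraries, with 1.10 and 0.57 after knockdown. It had 199, 176, 32 and 5 counts, and the counting intervals of the knockdown libraries, 2.72 to 5.60 and 0.676 to 4.86 CPM, lie below those of the controls, 14.5 to 19.3 and 21.2 to 28.6. Its log2 estimate was −2.51 ± 0.37 (SE), a level 5.70-fold lower, and the adjusted p was 0.241 by edgeR and 0.00232 by DESeq2. Without each library in turn the edgeR estimate was between −2.87 and −2.21. The DESeq2 adjusted p was 0.827 and 0.637 without control 1 and 2, and 0.0337 and 0.0110 without knockdown 1 and 2. GABRG3 was the only tested receptor gene with a log2 fold change below −1. It lies on chromosome 1 from 139855461 to 140464592, and SELENOS, the nearest measured gene before it, had a log2 fold change of 0.31 ± 0.32 (SE). GABRG1, a further gamma subunit, had 2 counts in control 1 and 0 elsewhere.

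The alpha and beta subunits were led by GABRA3 and GABRB2 in every library. GABRA3, an alpha subunit prominent in embryonic brain, was at 7.30 and 11.6 FPKM in control libraries, with 17.7 and 9.96 after knockdown. Knockdown 2 lies below control 2 on FPKM and above it after TMM scaling. edgeR estimated a log2 change of 0.75 ± 0.31 (SE) at an adjusted p of 0.606. GABRA3 held 71.4% to 88.8% of the summed alpha FPKM. GABRB2 was at 9.57 and 7.57 against 10 and 5.36 FPKM, and the edgeR estimate from counts was 0.02 ± 0.25 (log2, SE). Its sign turned with upper-quartile factors, total counts, both FPKM scales, and without control 2 or knockdown 1.

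GABRA2, GABRA4, GABRB1 and GABRQ, further tested GABA-A subunits, had log2 fold changes between −0.34 and 0.02. GABRA2, an alpha subunit, was at 2.12 and 1.06 FPKM in control libraries, with 1.95 and 0.73 after knockdown, and on TMM-scaled CPM it was more than 2-fold lower in the second library of each group. GABRA4, a partner of extrasynaptic receptors, was at 0.62 and 0.73 against 0.68 and 0.43 FPKM. GABRB1, a beta subunit, was at 0.31 and 0.27 against 0.19 and 0.22 FPKM, and GABRQ, the theta subunit, at 0.79 and 1.09 against 1.16 and 0.46. For these the groups overlap, except GABRB1 on FPKM and on CPM without TMM factors, where both knockdown values are below both controls. Together with GABRG1, the genes GABRA2, GABRA4 and GABRB1 are neighbours on chromosome 8 between 36198056 and 37354950. GABRA6, a cerebellar subunit, and the rho subunits GABRR1 and GABRR2 had at most 3.

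GABBR1, the agonist-binding GABA-B subunit, was at 6.17 and 7.33 FPKM in control libraries, with 8 and 15.6 after knockdown. Both knockdown values are above both controls, by little in knockdown 1. On the log2 scale knockdown over control came to 0.81 ± 0.37 (SE), with an edgeR adjusted p of 0.606, and it was 0.28 without knockdown 2.

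Among AMPA subunits, GRIA3 differed most between libraries. This gene, on chromosome X from 100827293 to 101109213, was at 8.40 and 25.95 FPKM in control libraries, with 23.7 and 103 after knockdown. Control 2 is above knockdown 1, so the groups overlap, and knockdown 2 is far above the others. edgeR estimated a log2 change of 2.19 ± 0.91 (SE) at an adjusted p of 0.606. It was 0.53 without knockdown 2 and 3.18 without control 2. GRIA3 made up 38.8%, 71.8%, 56.7% and 90.2% of the summed AMPA FPKM in control 1, control 2, knockdown 1 and knockdown 2.

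GRIA1, the subunit of calcium-permeable and newly inserted AMPA receptors, was at 7.71 and 4.84 FPKM against 11.9 and 7.95. Both knockdown values are above both controls, although knockdown 2 exceeds control 1 by little. Its log2 estimate was 0.87 ± 0.27 (SE), with an edgeR adjusted p of 0.553 and a range of 0.60 to 1.22 without each library. GRIA4, a further AMPA subunit, was at 5.50 and 5.13 against 6.02 and 3.16 FPKM. Its log2 estimate was 0.05 ± 0.24 (SE), which was negative with upper-quartile factors, total counts and both FPKM scales.

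Kainate receptors were represented by GRIK2 and GRIK5. GRIK2, a subunit that forms channels alone, was at 6.63 and 6.40 FPKM in control libraries, with 6.39 and 5.49 after knockdown. On the log2 scale knockdown over control came to 0.09 ± 0.20 (SE), with the smallest standard error among the tested receptor genes, and was −0.12 with total counts. GRIK5, which binds glutamate with high affinity and needs a partner such as GRIK2, was at 1.93 and 3.30 against 5.54 and 18.5 FPKM. Knockdown values are above both controls, and knockdown 2 is more than 3 times knockdown 1. On the log2 scale knockdown over control came to 2.49 ± 0.78 (SE), and the adjusted p was 0.553 by edgeR and 0.0609 by DESeq2, and it was 0.99 without knockdown 2. GRIK5 took 21.9% and 32.6% of the summed kainate FPKM in control libraries, and 44.7% and 68.5% after knockdown. GRIK4, the other high-affinity subunit, was not tested at 0.22, 0.29, 0.33 and 2.45 FPKM, and GRIK1 and GRIK3 had at most 7 counts.

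**Figure D4:**
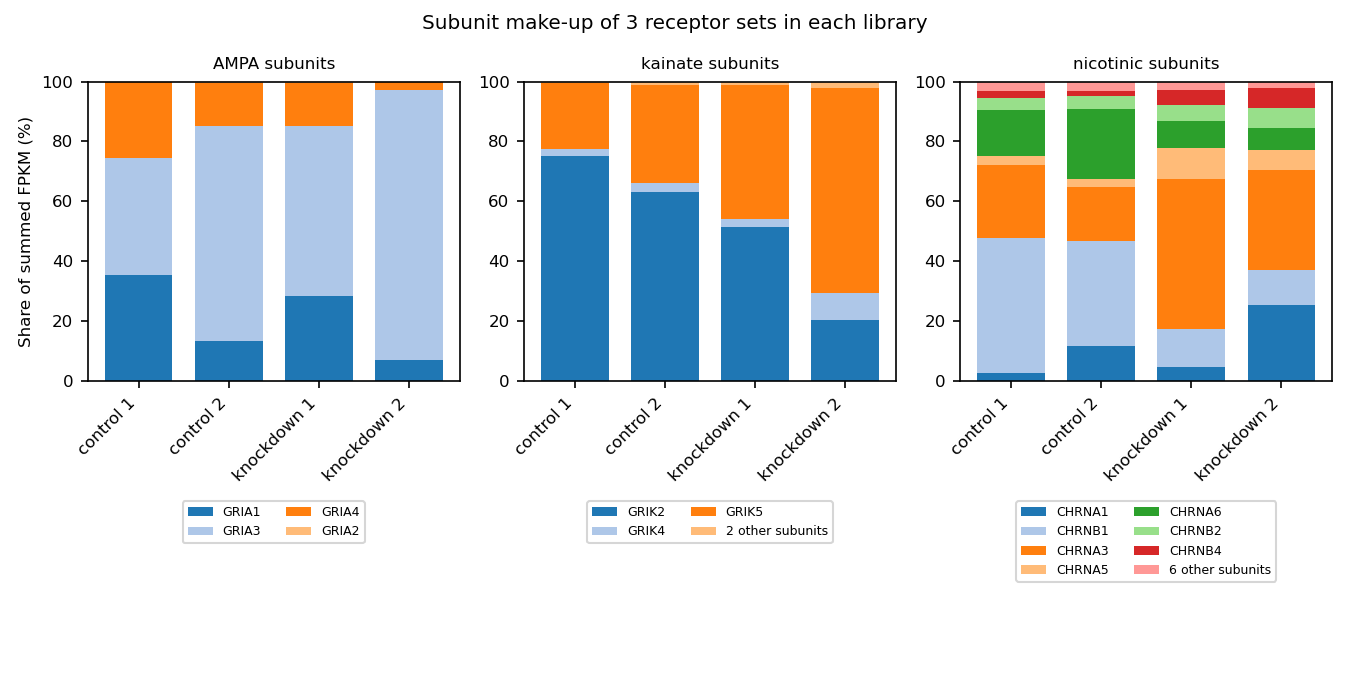
Share of the summed FPKM (percent, stacked bars from 0 to 100) taken by each subunit in each library, for AMPA, kainate and nicotinic subunits. The AMPA share of GRIA3 runs from 38.8% to 90.2% with control 2 above knockdown 1, and GRIK5 takes 21.9% and 32.6% of the kainate sum in control libraries, and 44.7% and 68.5% after knockdown.

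NMDA, delta and metabotropic glutamate receptors were near the limit of these libraries. GRIN3A, an NMDA subunit that lowers calcium flow in immature neurons, was at 1.17 and 0.70 FPKM against 1.03 and 1.06. Its edgeR estimate was 0.23 ± 0.42 (log2, SE). GRIN2D, an embryonic NMDA subunit, had 6, 4, 11 and 8 counts, with 0.09 and 0.10 against 0.24 and 0.59 FPKM, and a log2 estimate of 2.22 ± 0.83 (SE) at an edgeR adjusted p of 0.606. GRIN2B, the main embryonic NMDA partner of GRIN1, had 9, 15, 12 and 3 counts and a log2 fold change of 0.17 ± 0.74 (SE). GRIN2A and GRIN2C had at most 11 counts. GRID1, a delta receptor, had 5, 5, 9 and 12 counts.

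Metabotropic glutamate receptors included 2 tested genes of 8, both of the group that lowers cyclic AMP. GRM8 was at 1.04 and 0.96 FPKM in control libraries, with 0.74 and 1.05 after knockdown, and its log2 fold change was below 0.01 in size. GRM7 was at 0.12 and 0.55 against 0.29 and 1.79 FPKM, with a log2 fold change of 1.65 ± 1.18 (SE) that was −0.13 without knockdown 2. GRM2, GRM3, GRM4, GRM5 and GRM6 had at most 10 counts in any library.

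Glycine receptor subunits were mostly GLRA1 in every library. GLRA1 was at 21.1 and 19.0 FPKM in control libraries, with 27.2 and 13.1 after knockdown, so the knockdown values fall on both sides of the controls. edgeR estimated a log2 change of 0.18 ± 0.29 (SE) at an adjusted p of 0.829, and it was negative without knockdown 1. GLRA1 held between 90.3% and 94.2% of the summed glycine receptor FPKM. GLRB, the subunit that ties the receptor to the gephyrin scaffold, was at 1.09 and 1.08 against 0.92 and 0.91 FPKM, which gave −0.54 ± 0.43 (log2, SE) with an edgeR adjusted p of 0.669. GLRB had 48, 28, 24 and 4 counts in control 1, control 2, knockdown 1 and knockdown 2. The ratio of GLRA1 to GLRB on FPKM was 19.3, 17.6, 29.6 and 14.4 in this order, the last resting on 4 GLRB counts. As CPM, GLRA1 was at 202, 182, 260 and 125 and GLRB at 4.05, 3.93, 2.98 and 1.67. Knockdown 2 did not have the lowest ratio on CPM, so its place depends on the scale. GLRA3, a further alpha subunit, was at 0.68, 0.69, 0.74 and 0.49 FPKM with a log2 fold change of 0.06 ± 0.31 (SE), and GLRA2, the embryonic alpha subunit, had at most 2 counts.

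Members with a positive log2 fold change differed in how the libraries of a group compared. In 4 of them, among which were CHRNA1, GRIA3 and GRM7, TMM-scaled levels were more than 2-fold higher in control 2 than in control 1 and also in knockdown 2 than in knockdown 1, a pattern shared by 2.52% of all tested genes. GRIK5 and GRIN2D were more than 2-fold higher in knockdown 2 than in knockdown 1 alone. The fibroblast markers had medians of 0.94 (log2, control 2 over control 1) and 1.85 (knockdown 2 over knockdown 1), and their part in these receptor values was not tested. For CHRNA3 the same log2 differences were −0.43 and −0.73, for CHRNA5 −0.22 and −0.77, for CHRNB2 0.03 and 0.21, and for CHRNB4 −0.22 and 0.28. The neuron markers had 0.23 and −0.16.

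**Figure D5:**
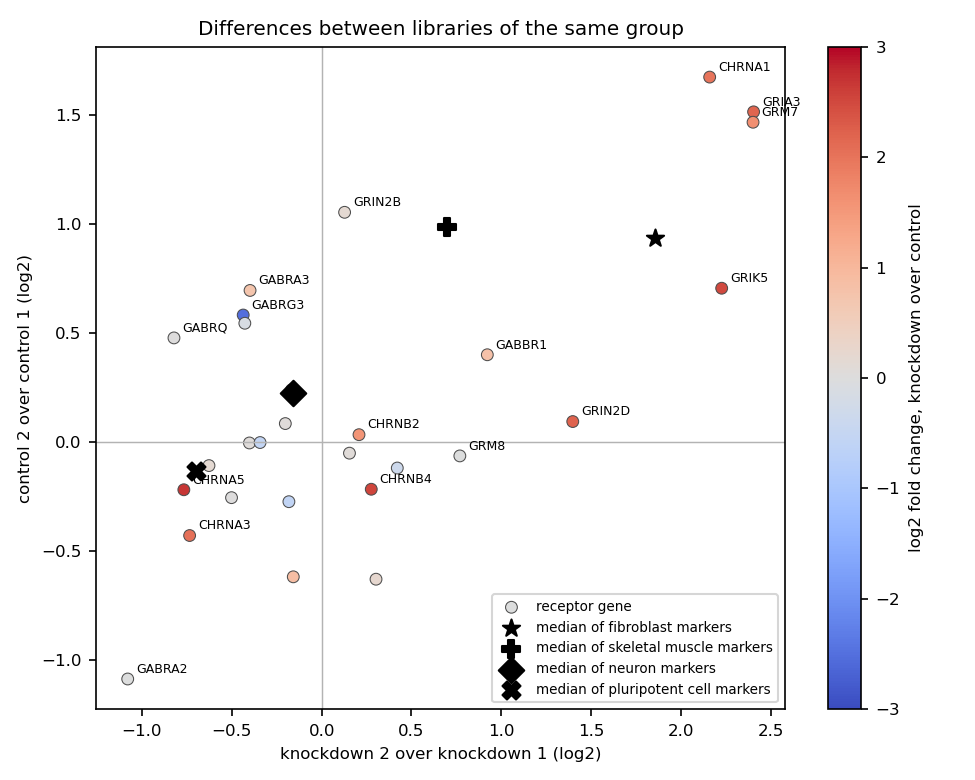
Each point is 1 of 28 tested receptor genes, placed by its log2 difference between the libraries of a group, knockdown 2 over knockdown 1 on the horizontal axis and control 2 over control 1 on the vertical axis, and coloured by its log2 fold change between groups; black symbols are medians of marker lists. GRIA3, GRM7, CHRNA1 and GRIK5 lie at the upper right near the fibroblast median, while the nicotinic genes CHRNA3, CHRNA5, CHRNB2 and CHRNB4 lie near or to the left of the centre.

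Genes that make, carry or anchor the same transmitters were listed beside the receptors, and edgeR called 0 of them. Of 41 measured glutamate genes 32 were tested, with 22 positive and a median of 0.13, and on TMM-scaled CPM both knockdown libraries were above both controls in 8 and below in 5, against 18.8% and 22.9% of all tested genes. On FPKM the balance turned, with 5 above and 8 below, against 10.7% and 28.5%. CACNG4, an auxiliary subunit of AMPA receptors, was at 8.61 and 9.42 FPKM against 19.1 and 13.6, with an edgeR estimate of 1.06 ± 0.19 (log2, SE). NETO1, an auxiliary subunit of kainate receptors, was at 1.09 and 1.30 against 0.18 and 0.31 FPKM, with an edgeR estimate of −2.40 ± 0.43 (log2, SE). SLC17A6, a vesicular glutamate transporter, was at 0.20 and 0.04 against 0.93 and 0.54 FPKM. It had 10, 1, 30 and 5 counts and passed the filter through the knockdown libraries alone. For CACNG4, NETO1 and SLC17A6 the edgeR adjusted p was 0.278, 0.278 and 0.541, and for the first pair the DESeq2 adjusted p was 0.0842 and 0.0714. SLC17A7, another such transporter, went the other way, at 4.71 and 3.31 against 1.66 and 1.47 FPKM. Its edgeR estimate was −1.16 ± 0.35 (log2, SE) with an adjusted p of 0.541.

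Of 20 measured GABA genes 14 were tested, with 8 positive and a median of 0.06. ABAT, the enzyme that breaks down GABA, was at 38.8 and 49.4 FPKM against 81.6 and 58.0. Its edgeR estimate was 0.87 ± 0.23 (log2, SE) with an adjusted p of 0.460. KCTD12 and KCTD16, auxiliary subunits of GABA-B receptors, had log2 fold changes of −0.89 and −1.70, the latter at 0.15 FPKM or less. GAD1, a GABA-synthesising enzyme, was at 1.25 and 5.07 against 1.10 and 0.67 FPKM, on 46, 113, 28 and 5 counts. Its edgeR estimate was −1.58 ± 0.77 (log2, SE) with an adjusted p of 0.606. GAD2, another such enzyme, had 1 count, in knockdown 2. Of 13 measured acetylcholine genes 11 were tested, with 4 positive and a median of −0.07. SLC5A7, the choline transporter of cholinergic neurons, was at 1.25 and 1.34 against 0.29 and 0.17 FPKM. Its edgeR estimate was −2.24 ± 0.44 (log2, SE) with an adjusted p of 0.309. LYPD1, which binds nicotinic receptors, and TMEM35A, a chaperone for their assembly, had log2 fold changes of 2.24 ± 0.71 and 1.26 ± 0.43 (SE), opposite to SLC5A7. Their edgeR adjusted p was 0.556 and 0.600. LYPD1 had 8.68, 6.04, 18.0 and 11 counts and passed the filter through the knockdown libraries alone. LYPD6, next in the list by p, was at −0.97 ± 0.40 (log2, SE) with an edgeR adjusted p of 0.606. RAPSN and MUSK, which cluster the muscle receptor, had at most 6 counts. Of 7 measured glycine genes 6 were tested and 1 was positive, with a median of −0.07. SHMT2, GCSH and GLDC had log2 fold changes of 0.49, −0.30 and −0.25.

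Markers of the cell types that carry these receptors were compared in the same fit. The neuron list had 9 of 10 tested members positive, against 51.2% of all tested genes, with a median of 1.14 and had sums of 192, 191, 303 and 264 FPKM in the same library order. DESeq2 called 3 of them higher, against 0.761% of all genes it gave an adjusted p, namely the neurofilaments NEFM and NEFL and the microtubule protein DCX, with adjusted p of 0.0152, 0.0261 and 0.0101. Summed neural progenitor markers were at 466, 364, 641 and 321 FPKM, with SOX1 at 0 in every library, and glial markers at 13.9, 14.8, 10.1 and 15.4. In the fibroblast list 13 of 14 tested members were positive with a median of 1.27, although DCN had 49, 2, 0 and 0 counts and LUM 0, 0, 2 and 0. Relative to the control mean, the median fibroblast marker stood at −0.18 (log2) for knockdown 1 but at 2.04 for knockdown 2. The positive median therefore came from knockdown 2. THY1, the negative member, had the smallest edgeR p of the list, on 226, 127, 61 and 16 counts. Its edgeR estimate was −1.17 ± 0.25 (log2, SE) with an adjusted p of 0.336. The part of the neuron markers in the receptor values was not tested.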

How the data were processed

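The authors' table was deposited for the whole series and holds 4 libraries. The tools named in the submitters' processing notes are Bowtie2 and RSEM 1.2.12, and the build is Sscrofa11.1. Reads shared by several genes are divided by RSEM, so GABRA4, GLRA1, GLRA3 and CHRNB2, whose counts are not all whole, are estimates. Neither strandedness nor aligner options are stated. The deposited expected counts are not normalised between libraries. Columns headed only as expression were read as FPKM made by the authors, since in 3 single-exon genes, with 200 bases taken off the length, they implied library totals 1.03 to 1.04 times the summed counts.

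Expected counts were rounded and tested with edgeR 4.0.16 (R 4.3.3), using TMM factors of 1.10, 1.07, 1.07 and 0.798, filterByExpr and its quasi-likelihood test between the groups, without covariates. Benjamini-Hochberg adjustment ran over all 11967 tested genes. The fit leaves 2 residual degrees of freedom plus 3.30 shared across genes. Standard errors are the unshrunken coefficient over the root of F. DESeq2 1.42.0, other factors, limma 3.58.1 on log2(FPKM + 1) and log2(FPKM + 0.1), no filter, a replicate block, and leaving out each library were alternatives. Differences within groups use log2(TMM-scaled CPM + 0.5). The script was tested on simulated counts. Poisson intervals cover counting error only. Positions come from the RefSeq table of the same build. Tested receptor genes are named with their values, except a few members that are not reported here but stay in the counts; in related lists the 3 genes of smallest p are, and others named there (GAD2, RAPSN, MUSK, CKM, SOX1, DCN, LUM) were picked after their values were seen. The members and lists were chosen with earlier results of these data known. No sequence was printed.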

Additional observations from a re-analysis of the deposited data

How the results depend on the processing

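Over all genes, the main counts of 0 higher and 0 lower became 96 and 34 with DESeq2, 28 and 12 with every gene of at least 1 count, 2 and 6 with total counts, and 1 and 1 with limma on log2(FPKM + 0.1). With limma on log2(FPKM + 1) 1 gene was lower. Leaving out 1 library gave 0 to 1110 higher and 0 to 94 lower, the highest of each without knockdown 1. Receptor genes called were 2 higher and 1 lower with DESeq2, 1 (CHRNA3) and 1 (GABRG3) with every gene of at least 1 count, 0 to 5 and 0 to 1 without 1 library in edgeR, and 0 to 3 and 0 to 1 without 1 library in DESeq2. The last was chosen after seeing the data, as were the FPKM and unscaled CPM counts of groups that do not overlap. The receptor median of 0.18 was 0.0205 with total counts, 0.000389 on log2(FPKM + 1), 0.0183 on log2(FPKM + 0.1) and 0.27 to 0.42 without 1 library. The median of all genes was −0.18, −0.18 and −0.22 in the first 3 of these settings. Between 16 and 24 of the 31 were positive in every setting. The cause was not tested.

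The changes that turned sign were small ones, except GRM7, whose main value of 1.65 was −0.13 without knockdown 2. GRM8 was 0.0266 with DESeq2 and 0.0247 with its size factors, where GABRA2 was 0.0127. With upper-quartile factors, total counts, log2(FPKM + 1) and log2(FPKM + 0.1), GABRB2 was −0.0728, −0.16, −0.19 and −0.21, GABRQ −0.0624, −0.13, −0.12 and −0.29, GLRA3 −0.0328, −0.12, −0.0655 and −0.16, GRIA4 −0.0364, −0.12, −0.22 and −0.28, and GRIK2 −0.00976, −0.12, −0.12 and −0.13. GLRA1 was −0.0756 and −0.0833 on the FPKM scales. Without 1 library the ranges were −0.42 to 0.17 for CHRNA6, −0.78 to 0.66 for GABRA2, −0.22 to 0.0431 for GABRA4, −0.58 to 0.0213 for GABRB1, −0.27 to 0.21 for GABRB2, −0.57 to 0.30 for GABRQ, −0.18 to 0.43 for GLRA1, −0.0759 to 0.12 for GLRA3, −0.20 to 0.19 for GRIA4, −0.0048 to 0.17 for GRIK2, −0.44 to 1.05 for GRIN2B, −0.0542 to 0.63 for GRIN3A, −0.13 to 3.07 for GRM7 and −0.43 to 0.47 for GRM8. A fit without 1 library leaves a lone library in a group, which is assumed to vary like the other group. The depth of knockdown 2 limits every low gene.

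The column names of both groups end in 1 and 2, and the labels do not say whether this digit marks a shared batch or day. Chosen after seeing the data, an edgeR fit with the digit as a replicate block called 1032 genes higher and 306 lower, and 11 receptor genes higher and 1 lower, where the fit without it called 0. The higher receptor genes included CHRNA3, CHRNA5, CHRNB2, CHRNB4, CHRNA1, GRIA1, GRIA3, GRIK5, GABRA3 and GABBR1, and the lower one was GABRG3. That fit leaves 1 residual degree of freedom, and edgeR set the prior degrees of freedom to infinity, so each gene's own spread had no part in its p. The differences between libraries 2 and 1 of each group had a correlation of 0.57 over all tested genes, which are not independent replicates. With 2 pairs this does not establish a pairing, and the calls are not used in the report.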
